A study of Homo sapiens with 8 samples.

Results

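The immediate early genes NR4A1, NR4A2, NR4A3, EGR1, EGR2, EGR3, FOS, FOSB, JUNB and JUN were followed in every array of ALL-SIL, a T-ALL (T-cell acute lymphoblastic leukemia) line of human origin in which the homeobox gene TLX1 is active. A probe set counted for a gene when the array annotation gave that symbol and no other. Of the 10 genes, 9 had such a probe set, with 20 probe sets in all among the 54675 on the array. EGR2 had none with its symbol alone and is not analysed here. A probe set was kept for testing when it lay above the array median, about 5.30 on the log2 scale, in at least 2 of the 8 arrays. This left 17 of the 20 probe sets among 30816 kept, and 8 of the 10 genes among 13102 tested. All 3 probe sets lost to this filter were dim: the only EGR3 probe set and 2 of the 3 for NR4A3.

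The 8 Affymetrix arrays formed 4 groups of 2. In the TCR experiment both groups carried a T-cell receptor (TCR) α/β and GFP vector. The TCR activation group was co-cultured for 48 h with OP9-DL1, stromal cells of the mouse that carry the Notch ligand DL1, and its comparison group had no co-culture. In the hairpin experiment, a lentiviral hairpin against TLX1 was set against the pLKO.1-puro control hairpin, and both groups had been selected with puromycin. The labels describe the TCR vector both as a murine HY receptor and as a Jurkat-derived receptor with GFP, so which receptor these arrays carried is not settled here. The TCR contrast joins TCR engagement, stroma and Notch ligand, which cannot be told apart, and every result rests on 1 cell line. RNA was taken before apoptosis set in, per the labels.

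Immediate early genes are switched on within minutes of a stimulus, without new protein synthesis, and their messages are short-lived. In T cells, signals from the TCR reach them through the kinases ERK and JNK and through calcium. Serum response factor and its partners then act at CArG boxes, and CREB acts at cyclic AMP response elements (CRE). NR4A1, NR4A2 and NR4A3 (Nur77, Nurr1 and Nor1) are orphan nuclear receptors, and Nur77 and Nor1 are linked to the death of thymocytes that receive strong TCR signals. EGR1, EGR2 and EGR3 are zinc finger factors of thymocyte selection and T cell tolerance. FOS and FOSB pair with JUN or JUNB as the dimer AP-1. Levels of these genes can also move with handling and stress of cells before lysis.

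The promoters of EGR1, FOS, JUN and FOSB are printed here because these genes had the widest gaps of the 8 tested between the arrays without co-culture, as described further on. The sequences are those of RefSeq on GRCh38.p14 and hold the 250 bases before the annotated start, on the gene's own strand. Capitals mark CArG boxes, the CRE core TGACG on either strand and the TATA box TATAAA. EGR1 lies at chr5:138465229-138465478, plus strand, FOS at chr14:75278578-75278827, plus strand, JUN at chr1:58784048-58784297, minus strand and FOSB at chr19:45467746-45467995, plus strand, all of them upstream of the transcript.
EGR1: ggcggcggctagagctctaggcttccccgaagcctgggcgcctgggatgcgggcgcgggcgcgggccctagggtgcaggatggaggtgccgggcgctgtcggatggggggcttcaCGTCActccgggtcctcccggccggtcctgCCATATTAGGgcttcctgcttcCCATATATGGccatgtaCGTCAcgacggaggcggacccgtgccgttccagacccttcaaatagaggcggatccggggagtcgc
FOS: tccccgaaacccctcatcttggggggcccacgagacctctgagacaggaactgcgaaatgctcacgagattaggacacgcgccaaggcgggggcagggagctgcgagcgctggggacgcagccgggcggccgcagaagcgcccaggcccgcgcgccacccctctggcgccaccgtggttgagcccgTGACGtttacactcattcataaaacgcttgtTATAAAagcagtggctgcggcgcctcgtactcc
JUN: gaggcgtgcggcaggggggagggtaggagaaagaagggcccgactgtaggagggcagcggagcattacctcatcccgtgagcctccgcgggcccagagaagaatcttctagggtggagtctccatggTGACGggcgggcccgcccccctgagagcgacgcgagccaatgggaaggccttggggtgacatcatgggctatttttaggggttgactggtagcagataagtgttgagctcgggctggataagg
FOSB: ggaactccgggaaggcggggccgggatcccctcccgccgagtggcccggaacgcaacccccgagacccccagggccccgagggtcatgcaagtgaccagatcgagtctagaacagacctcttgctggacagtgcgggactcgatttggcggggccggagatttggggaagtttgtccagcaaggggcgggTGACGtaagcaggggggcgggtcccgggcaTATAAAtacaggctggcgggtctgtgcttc
In the EGR1 sequence the CArG boxes ran from -105 to -96 and from -83 to -74 relative to the start, and CRE cores from -135 to -131 and from -66 to -62. FOS had a CRE core from -64 to -60 and a TATA box from -33 to -28, and FOSB had them from -60 to -56 and from -30 to -25. JUN had a CRE core from -123 to -119 and neither other motif in these bases.

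RefSeq promoters of 250 bases before and 50 after the start were on hand for 8 of the 10 genes, in 11 entries, with none for NR4A2 and EGR3. The CRE core TGACG, read on both strands, stood in 7 of the 11 entries, against 24.6% of 35116 human promoters of the same length. The TATA box TATAAA stood in 3 of the 11, those of FOS, JUNB and FOSB, against 11.5%. A CArG box stood in 2, of EGR1 and EGR2, against 1.29%. An NF-kB site stood in 1, of EGR2, against 11.3%. The full CRE TGACGTCA, which contains the core on each strand, stood in 0 (1.85% of all), as did the AP-1 site TGANTCA (7.71%), the EGR site (5.77%) and the NR4A site AAAGGTCA (1.22%). These matches are descriptions of letters and no evidence of binding. Sites more than 250 bases before the start, or spelled otherwise than these patterns, are not counted. A 0 thus does not show that a promoter lacks such a site.

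ALL-SIL read as a T cell line throughout: 16 of 16 measured T cell markers lay above the array median in every array. TLX1 read 8.69 and 8.57 in the co-cultured arrays, 8.70 and 8.60 without co-culture, 7.98 and 7.88 with the TLX1 hairpin and 8.66 and 8.27 with the control hairpin. Whether replicates were separate cultures is not stated in the labels. The p-values therefore reflect only how far these arrays spread, which may be technical. In bulk RNA, fewer cells that express a gene and less RNA per cell cannot be told apart.

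NR4A2 was the immediate early gene that fell in the co-cultured cells. Its representing probe set 204622_x_at read 5.48 and 5.36 in the co-cultured arrays, against 6.45 and 6.63 without co-culture. The groups did not overlap, and the co-cultured values lay just above the array median. The change was -1.12 on the log2 scale (SE 0.17, 95% interval -1.51 to -0.73), 2.18-fold lower, with a limma adjusted p of 0.0369 over all genes. Both other NR4A2 probe sets gave the same order of arrays between groups. 216248_s_at read 5.40 and 5.27 in co-cultured arrays and 6.13 and 6.41 without co-culture (change -0.93, limma adjusted p = 0.223 over all probe sets). 204621_s_at read 5.18 and 5.28 in co-cultured arrays and 5.95 and 5.92 without (change -0.70, limma adjusted p = 0.559). In each of the 3 probe sets both co-cultured arrays lay below both others, but only 204622_x_at passed, with an adjusted p of 0.0423 over all probe sets. The suffix _x_at, also carried by the representing probe sets of NR4A1 and JUN, marks probe sets whose probes may also match other transcripts. Such matches were not tested for any probe set here. Both co-cultured values of 204621_s_at and the lower one of 216248_s_at lay below the array median, so the sizes of these changes are not exact.

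The NR4A2 call rested on all 4 arrays of its experiment. Leaving out any one of them, or either TLX1 hairpin array, ended it, with adjusted p values between 0.0915 and 0.42, and the mean of its 3 probe sets gave -0.92 (limma adjusted p = 0.119). The size of the change depended little on any array and lay between -1.21 and -1.03.

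NR4A1, the best known sensor of TCR signal strength in this family, did not pass in the TCR contrast. Its probe set 202340_x_at read 6.59 and 6.55 in the co-cultured arrays, against 6.50 and 6.60 without co-culture, and the groups overlapped. The change was 0.02 (95% interval -0.32 to 0.36), and the other probe sets changed by -0.02 (210226_at) and 0.01 (211143_x_at). NR4A3 (209959_at) read 4.51 in both co-cultured arrays and 4.37 and 4.53 without co-culture, all below the array median. Its other probe sets, 207978_s_at and 216979_at, were above the median in 0 arrays. The NR4A genes thus had 1 member that passed and 2 that did not in this contrast; differences between members were not tested.

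FOS, an AP-1 subunit that cannot pair with itself, had the widest difference by size and no call. It read 5.31 and 5.36 in the co-cultured arrays, against 5.88 and 7.86 without co-culture. The groups did not overlap, yet the higher array without co-culture stood 1.99 above the other, a gap wider than the distance of the lower array from the co-cultured pair. The change was -1.54 (SE 0.53, 95% interval -2.77 to -0.31, limma adjusted p = 0.525). It was -0.54 without no-co-culture replicate 2, and -2.53 with an adjusted p of 0.00608 without no-co-culture replicate 1, where the remaining array is assumed to vary like the other groups.

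EGR1, a zinc finger factor and early reporter of ERK signalling, read 7.57 and 7.49 in the co-cultured arrays, against 7.12 and 9.05 without co-culture (201694_s_at). Here the co-cultured pair lay between the 2 arrays without co-culture. The change was -0.55 (95% interval -1.91 to 0.81, limma adjusted p = 0.965) and turned to 0.41 without no-co-culture replicate 2. Its probe set 227404_s_at read 4.85 and 5.08 in co-cultured arrays and 4.92 and 7.06 without, and 201693_s_at read 5.46 and 5.35 in co-cultured arrays and 5.15 and 6.20 without. All 3 probe sets had no-co-culture replicate 2 as the highest array of the experiment. EGR3 (206115_at) read 4.14 and 4.02 in co-cultured arrays and 3.79 and 4.10 without, below the array median in every array of the series, and was not tested.

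JUN, the core AP-1 subunit, read 10.89 and 10.93 in the co-cultured arrays, against 11.62 and 12.38 without co-culture (201464_x_at). The groups did not overlap, but the change of -1.09 did not pass (SE 0.59, 95% interval -2.45 to 0.28, limma adjusted p = 0.817). The other JUN probe sets, 201465_s_at among them, overlapped between the groups and changed by -0.03. JUNB, an AP-1 subunit that can also restrain JUN, read 7.37 in both co-cultured arrays, against 7.53 and 7.73 without. The JUNB groups did not overlap, and the change of -0.26 did not pass (limma adjusted p = 0.935). FOSB, a relative of FOS, read 5.25 and 5.40 in co-cultured arrays and 5.31 and 5.63 without, with overlapping groups and a change of -0.15.

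**Figure D1:**
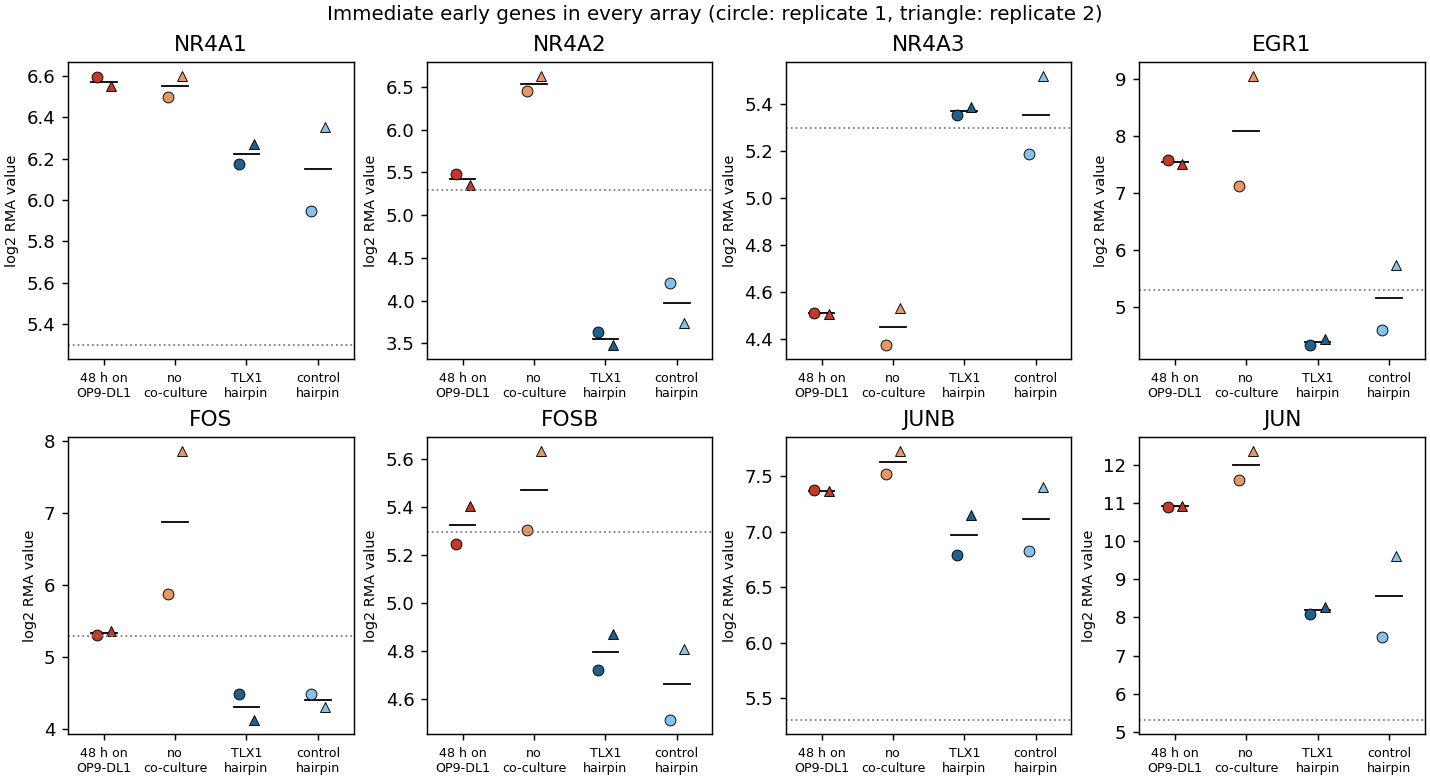
Level of each of the 8 tested genes in every array (log2 RMA value, one panel per gene with its own axis); circles are replicate 1, triangles replicate 2, bars group means, and the dotted line the array median where it falls in range. In the arrays without co-culture the triangle is the highest point of the TCR experiment in all 8 panels, and FOS spans 5.88 to 7.86 there.

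In the TCR contrast 1 of the 8 genes tested passed as lower and 0 as higher, where 0.252% of all genes passed as lower and 0.366% as higher. By sign 6 were lower, and at an unadjusted p under 0.05, met by 7.42% of all genes, the lower ones were NR4A2 and FOS. The median change of the 8 was -0.40, beside 0.02 over all genes tested. Both co-cultured arrays lay below both arrays without co-culture for 4 genes, NR4A2, FOS, JUNB and JUN, where 25.4% of all genes did so. They lay above for 0 of the 8, where 32% of all genes did. At the level of probe sets 1 of 17 passed as lower, beside 0.214% of all probe sets. At an unadjusted p under 0.05, met by 6.71% of all probe sets in either direction, 4 were lower. These 4 are the 3 NR4A2 probe sets and that of FOS, so they add no gene to those named above. The 17 include 3 JUN probe sets that hold one profile. No-co-culture replicate 2 enters all of these figures, and that an array without co-culture stood high was known beforehand. The counts, median and shares of this paragraph are therefore descriptions and no independent support.

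The spread within the groups was itself uneven among these genes. By representing probe sets, all 8 genes were higher in no-co-culture replicate 2 than in replicate 1 (51.9% of all genes were). That array was also the highest of the experiment for all 8, as for 27.5% of all genes. NR4A1 led there by little, with 6.60 against 6.59 in co-cultured replicate 1. NR4A1 210226_at (6.61) and 211143_x_at (6.23) and JUN 201465_s_at (8.65) were instead highest in co-cultured replicate 1. NR4A2 204621_s_at was highest in no-co-culture replicate 1 (5.95). The gap between the 2 arrays without co-culture was 1.99 for FOS, rank 3 of 13102 genes by width, and 1.93 for EGR1, rank 4. It was 0.76 for JUN, rank 48, and 0.33 for FOSB, rank 621. The other 4 genes had gaps of 0.11 to 0.21, with ranks from 2093 to 5653. A gap of at least 1 was thus found in 2 of the 8 genes, where 0.145% of all genes had one. That an array without co-culture stood high was known when these genes were taken up. The ranks and shares of this paragraph are therefore descriptions and no independent support.

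In the control hairpin group replicate 2 was the higher for 6 of the 8 genes, beside 55.7% of all genes, and it was also the higher for 6 of 8 in the TLX1 hairpin group, beside 51.6%. Control hairpin replicate 2 was the highest of the 4 hairpin arrays for 5 of the 8 genes, where it was so for 35.4% of all genes. JUN read 7.50 and 9.61 in this group, a gap of 2.11, rank 22. EGR1 read 4.58 and 5.73 by 201694_s_at (gap 1.15, rank 215), and 4.42 and 7.45 by 227404_s_at. The lower value of each EGR1 pair lies below the array median, so the sizes of these gaps are not exact. A gap of at least 1 was found in 2 of the 8 genes, where 2.89% of all genes had one. FOS, with the widest gap of these genes without co-culture, did not share this pattern and read 4.50 and 4.32 in the control hairpin arrays, both below the array median. NR4A2 was also lower in replicate 2, at 3.74 against 4.21 in replicate 1.

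By representing probe sets, the co-cultured arrays lay closer together than the arrays without co-culture for all 8 genes. Over all genes tested the median gap was also smaller, at 0.06 beside 0.09. Some other member probe sets went the other way. These include NR4A1 210226_at (gaps of 0.29 co-cultured and 0.11 without), NR4A2 204621_s_at (0.10 and 0.03) and JUN 201465_s_at (0.28 and 0.004). The TLX1 hairpin arrays lay closer together than the control arrays for 7 of the 8 genes, with FOS the exception (gaps of 0.37 and 0.18). Over all genes tested the median gaps of these groups were 0.16 and 0.25. The gaps of the 8 genes in the co-cultured group ran from 0.00 to 0.16, and in the TLX1 hairpin group from 0.03 to 0.37. A gap of at least 1 was found in 0 of 8 genes in each, where 0.0458% and 0.481% of all genes had one.

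**Figure D2:**
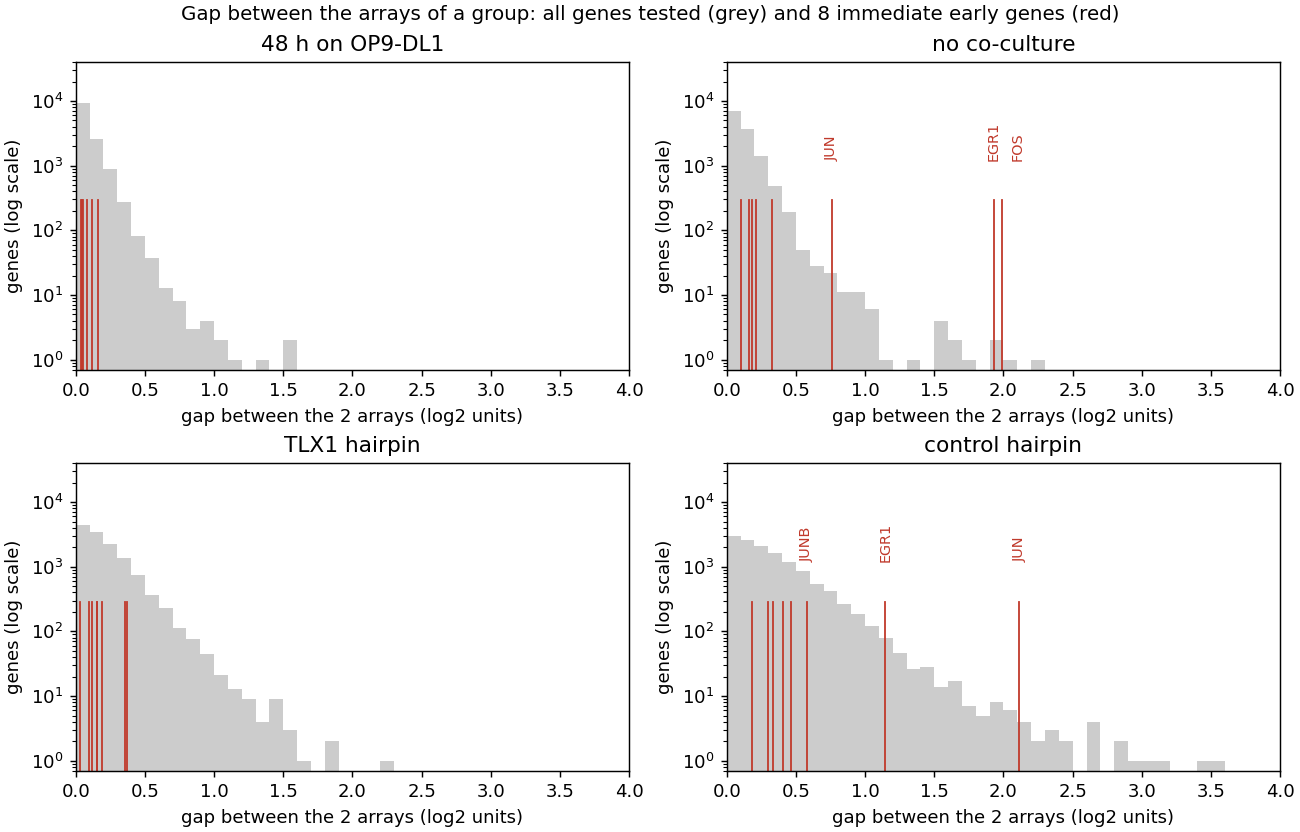
Width of the gap between the 2 arrays of each group (x axis, log2 units) for all 13102 genes tested (grey, number of genes on a log axis) and for the 8 immediate early genes (red lines), one panel per group. Without co-culture FOS and EGR1 stand at 1.99 and 1.93 in the far tail, and in the control hairpin group JUN stands at 2.11.

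With the TLX1 hairpin 0 of the 8 genes passed the limma threshold, where 0.0916% of all genes passed in either direction. At an unadjusted p under 0.05, met by 8.98% of all genes, NR4A2 alone was lower and 0 were higher. By sign 5 were lower and 3 higher, with a median change of -0.12 beside -0.00 over all genes. Both TLX1 hairpin arrays lay below both control arrays for 2 genes, NR4A2 and EGR1, where 14.6% of all genes did so. They lay above for 0, where 14.1% did. Of 17 probe sets, 2 were lower and 3 higher at an unadjusted p under 0.05, met by 8.22% of all probe sets. The 3 are the JUN probe sets of one profile, in which both TLX1 hairpin arrays lay above both control arrays. TLX1 itself changed by -0.53 in this contrast (limma adjusted p = 0.334).

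NR4A2 read 3.63 and 3.48 with the TLX1 hairpin, against 4.21 and 3.74 with the control hairpin, a change of -0.42 (95% interval -0.81 to -0.03, limma adjusted p = 0.53). All these values lie below the array median, so the size is not exact. NR4A1 did not overlap between the groups in its probe set 211143_x_at, with 5.18 and 4.99 under the TLX1 hairpin and 5.40 and 5.46 under the control. The TLX1 hairpin values lie below the array median, and that change of -0.35 did not pass (limma adjusted p = 0.508). Its probe set 210226_at did not overlap either, with 5.86 and 5.81 against 5.87 and 6.16 (change -0.18, limma adjusted p = 0.798). The representing 202340_x_at went the other way by sign, with 0.07. NR4A3 read 5.35 and 5.39 with the TLX1 hairpin and 5.19 and 5.52 with the control, the only experiment in which its values reached the array median.

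EGR1 read 4.32 and 4.44 with the TLX1 hairpin, against 4.58 and 5.73 with the control hairpin, and only that last array exceeded the array median. Its change of -0.78 (95% interval -2.14 to 0.58, limma adjusted p = 0.748) shrank to -0.21 without control hairpin replicate 2. JUN (201464_x_at) read 8.10 and 8.28 with the TLX1 hairpin, between the 7.50 and 9.61 of the control arrays. Its change of -0.36 (limma adjusted p = 0.915) was -1.42 with an adjusted p of 0.02 without control hairpin replicate 1, and 0.69 without replicate 2. The control array left out thus set the sign for JUN by this probe set. The other JUN probe sets, which hold one profile, were higher with the TLX1 hairpin whichever array was left out (0.39 to 0.58). FOS, FOSB and JUNB changed by -0.10, 0.13 and -0.14, each with overlapping groups.

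**Figure D3:**
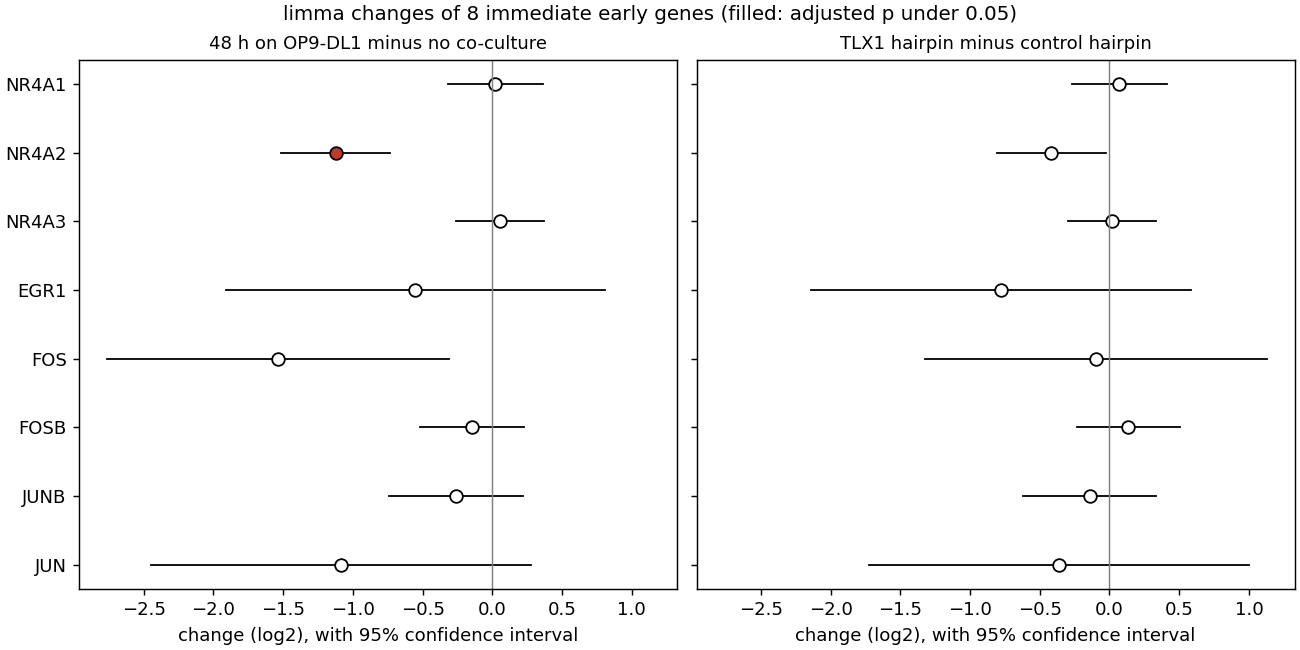
Change of each of the 8 genes (log2, x axis) with its 95% confidence interval from limma, for 48 h on OP9-DL1 minus no co-culture (left) and TLX1 hairpin minus control hairpin (right); filled points have an adjusted p under 0.05. NR4A2 in the left panel, at -1.12, is the only filled point, and the intervals of EGR1, FOS and JUN are the widest in both panels.

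The change on OP9-DL1 and the change with the TLX1 hairpin rest on different arrays, and their difference was tested in the same model. Of the 8 genes, 0 passed, where 0.382% of all genes passed in either direction. NR4A2 was lower in the TCR contrast by a further 0.70 on the log2 scale (difference -0.70, limma adjusted p = 0.44) and was the only one with an unadjusted p under 0.05. Its hairpin values lie below the array median, so this difference is not exact. Left-out arrays gave calls for this difference in 2 genes: -2.43 for FOS without no-co-culture replicate 1 (limma adjusted p = 0.0327) and -0.94 for NR4A2 without control hairpin replicate 1 (limma adjusted p = 0.0259).

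By representing probe sets, mean levels of each of the 8 genes differed more between the experiments than between the groups of either one. EGR1 227404_s_at did not: its means were 0.20 apart between experiments, beside changes of -1.02 on OP9-DL1 and -1.33 with the TLX1 hairpin. Nor did JUN 201465_s_at, with 0.48 between experiments and 0.48 with the TLX1 hairpin. For 6 of the 8 genes all 4 arrays of the TCR experiment lay above all 4 hairpin arrays, where 36.9% of all genes did so, and NR4A3 lay below, as 17.8% did. JUNB overlapped. JUN averaged 11.46 ± 0.70 in arrays of the TCR experiment and 8.37 ± 0.89 in those with hairpins, and EGR1 averaged 7.81 ± 0.85 and 4.77 ± 0.65 in the same order (log2, SD, n = 4 arrays each). NR4A2 averaged 5.98 ± 0.65 and 3.76 ± 0.31, and FOS 6.10 ± 1.20 and 4.36 ± 0.18. The group means of NR4A2, EGR1, FOS, JUNB and JUN stood in the same order, with no co-culture highest, then co-cultured, control hairpin and TLX1 hairpin, although neighbouring groups overlapped for 4 of these 5. The 3′ minus 5′ signal of actin, a sign of RNA quality, moved with the experiment: it was 2.51 and 2.48 in co-cultured arrays, 2.71 and 2.30 without co-culture, and 0.57 to 0.83 in the hairpin arrays. Vector, selection, RNA and handling all differ between the experiments and cannot be told apart.

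JUN was read by 4 probe sets that fell into 2 patterns. 201465_s_at, 201466_s_at and 213281_at held the same profile up to a constant, to within 6.25e-06, and count as 1 measurement. 201465_s_at read 8.65 and 8.37 in the co-cultured arrays, against 8.54 in both arrays without co-culture, and 8.38 and 8.19 with the TLX1 hairpin, against 7.87 and 7.73 with the control. Neither high array seen with 201464_x_at appeared in this profile, and the correlation between the 2 patterns, centred within each experiment, was -0.291 over 8 arrays. Its change with the TLX1 hairpin was 0.48 (limma adjusted p = 0.412), opposite in sign to the -0.36 of 201464_x_at. These 3 belong to 172 probe sets written with 5 decimals in the deposited table, where 54503 have 8 or 9. Of the 172, 122 shared their profile with another, in 43 sets, and why is not given in the sources used here.

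The probe sets of NR4A2 correlated at 0.899 to 0.964 over the 8 arrays after centring within each experiment, and those of EGR1 at 0.654 to 0.933. For EGR1 the probe sets differed in which high array stood out most: 201694_s_at was highest without co-culture (9.05) and 227404_s_at in the control hairpin group (7.45). For NR4A1 the correlations ran from -0.168 to 0.659. These correlations are descriptions over arrays that share group and experiment.

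**Figure D4:**
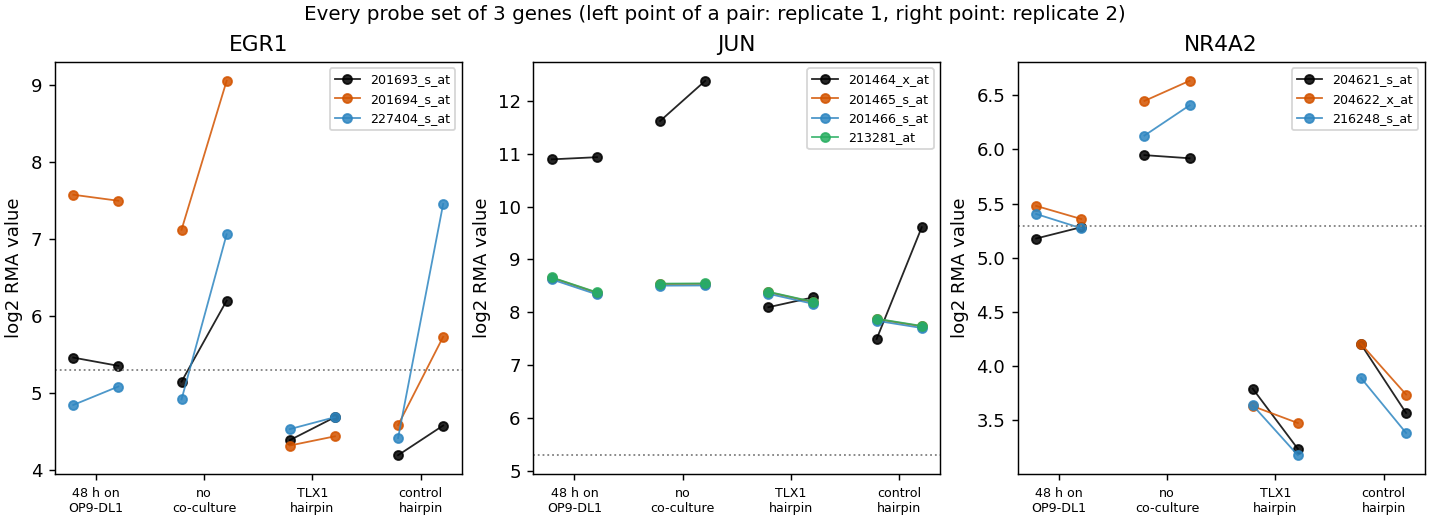
Every probe set of EGR1, JUN and NR4A2 (log2 RMA value) in the 4 groups, with replicate 1 left and replicate 2 right in each pair and the dotted line at the array median. The EGR1 lines climb to replicate 2 without co-culture, the JUN probe sets other than 201464_x_at lie on one line, and the 3 NR4A2 probe sets are lower in both co-cultured arrays.

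Relatives and cofactors of these genes were measured beside them. Of 13 genes on this list, 10 were tested and 0 passed in either contrast (limma). An unadjusted p under 0.05 was met by 7.42% of all genes in the TCR contrast and 8.98% with the TLX1 hairpin. Of the 10, 1 was lower and 0 were higher at that level in each contrast. Their median change was -0.11 in the TCR contrast, beside 0.02 over all genes, and -0.07 with the TLX1 hairpin, beside -0.00. MAFF, a small Maf protein, was the gene behind both unadjusted counts, with 5.67 and 5.68 in co-cultured arrays, against 6.05 and 5.99 without co-culture (change -0.35, adjusted p = 0.65). With the TLX1 hairpin it read 5.63 and 5.43, against 5.88 and 6.23 with the control (change -0.52, adjusted p = 0.322). ATF3, a stress-induced AP-1 relative, was highest in replicate 2 of both comparison groups: 7.49 and 7.59 in co-cultured arrays, against 7.51 and 8.49 without co-culture, and 6.39 and 6.13 with the TLX1 hairpin, against 6.15 and 7.84 with the control. FOSL2, a FOS relative, changed by -0.55 in the TCR contrast (adjusted p = 0.829), and NAB1, a corepressor of EGR proteins, by -0.10.

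Of 26 other immediate early genes, 20 were tested. In the TCR contrast 2 rose and 0 fell (limma), where 0.366% of all genes rose and 0.252% fell. At an unadjusted p under 0.05, met by 7.42% of all genes, 7 were lower and 2 higher. The median change was -0.41, beside 0.02 over all genes. TRIB1, a pseudokinase that promotes protein degradation, read 5.46 and 5.51 in co-cultured arrays, against 3.63 and 3.70 without co-culture. Its change was 1.82 (adjusted p = 2.38e-04), and the low values lie below the array median, so the size is not exact. IER3, an early stress response gene, read 9.37 and 9.06 in co-cultured arrays, against 7.68 and 7.64 without (change 1.56, adjusted p = 0.00165), and its probe set is among those written with 5 decimals. The genes that passed in this list were thus higher, while NR4A2 among the members was lower.

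KLF6, a zinc finger factor, came closest to a fall in both contrasts. It read 10.90 and 10.95 in co-cultured arrays, against 11.57 and 11.62 without co-culture (change -0.67, limma adjusted p = 0.0582). With the TLX1 hairpin it read 10.67 and 10.47, against 11.38 and 11.45 with the control (change -0.84, adjusted p = 0.0682). Its replicates lay 0.04 apart without co-culture and 0.07 apart with the control hairpin. RGS2, a brake on G protein signals, changed by -1.05 (adjusted p = 0.295) in the TCR contrast and by -0.80 (adjusted p = 0.441) with the TLX1 hairpin. With the TLX1 hairpin 0 of these 20 genes passed, and the median was -0.18. At an unadjusted p under 0.05, met by 8.98% of all genes, 3 were lower and 0 higher.

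Upstream regulators, the kinases and DNA-binding factors that feed these promoters, gave 0 calls among 17 tested of 19 in either contrast, and 0 at an unadjusted p under 0.05 (limma). Their median change was -0.04 in the TCR contrast and 0.08 with the TLX1 hairpin. SRF, the CArG box factor, is named for that role and outside the naming rule, and read 8.12 and 8.02 in co-cultured arrays and 7.97 and 7.93 without, a change of 0.12. CREB1, the CRE factor, read 9.66 and 9.63 in co-cultured arrays and 9.79 and 9.82 without. MAPK3, which encodes the kinase ERK1, read 8.06 and 8.09 in co-cultured arrays and 7.78 and 7.92 without. RNA levels of these regulators do not measure their activity.

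Downstream T cell genes were largely dim, with 6 of 14 tested. Of these, 0 passed in either contrast by limma, at an adjusted or an unadjusted p under 0.05. All 6 were lower by sign in co-cultured cells, with a median of -0.34. TNF, an activation cytokine, read 8.28 and 8.51 in co-cultured arrays, against 8.35 and 9.10 without co-culture. BHLHE40, an activation-induced transcription factor, read 8.16 and 8.34 with the TLX1 hairpin, against 8.20 and 10.30 with the control. The gap of 2.09 between these control hairpin arrays was close in width to that of JUN, and the higher array was again replicate 2.

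Heat shock genes, which respond to handling and protein stress, were followed for the same arrays. In the TCR contrast 1 of 7 tested of 10 fell and 0 rose (limma), where 0.252% of all genes fell and 0.366% rose. HSPA6, a strictly inducible chaperone, read 6.18 and 6.67 in co-cultured arrays, against 7.99 and 8.86 without co-culture (change -2.00, adjusted p = 0.0284). DNAJB1, an HSP70 co-chaperone, read 9.29 and 9.41 in co-cultured arrays, against 10.48 and 11.47 without (change -1.63, adjusted p = 0.0659). All 7 were higher in no-co-culture replicate 2 than in replicate 1, where 51.9% of all genes were. These differences ran from 0.11 (HSPB1) to 0.99 (DNAJB1). The 8 immediate early genes were also higher there by their representing probe sets. In the control hairpin group 3 of the 7 heat shock genes were higher in replicate 2, beside 55.7% of all genes, and DNAJB1 differed there by 0.05. BAG3 and DNAJB4, chaperone genes outside this list, were higher in control hairpin replicate 2 by 1.29 and 0.66. Both were picked, as described next, for likeness to the members' mean, which is itself high in that array, so this was favoured by the choice. Of the lists above, 5 of 20 other immediate early genes (KLF10 by 1.47) and 3 of 6 downstream T cell genes (NFIL3 by 1.53) were higher there by at least 1. Of the heat shock genes 0 of 7 were. Whether the lists differ in this was not tested.

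Of the genes tested, 1067 varied within experiments by an SD of at least 0.3, and their profiles were set against the mean profile of the 8 members. That mean, centred within each experiment, was -0.29 in both co-cultured arrays, -0.07 and 0.64 without co-culture, -0.12 and -0.07 with the TLX1 hairpin and -0.17 and 0.36 with the control. The most alike genes over the 8 arrays were PPP1R15A, a stress-induced phosphatase subunit (r = 0.973), and DUSP10, a phosphatase of JNK and p38 (r = 0.968). They were followed by the adaptor gene DOK2 (0.959), the MAP kinase phosphatase gene DUSP1 (0.949), ID1 (0.939), DEDD2 (0.938), LOC389765 (0.936), JMJD6 (0.931), and the chaperone genes DNAJB4 (0.928) and BAG3 (0.927). Of these 10, 0 passed in either contrast by limma. DUSP1 read 6.89 and 6.96 in co-cultured arrays, 7.14 and 8.02 without co-culture, 4.60 and 5.05 with the TLX1 hairpin and 4.56 and 5.64 with the control.

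Among the members themselves, EGR1 (r = 0.901), JUN (0.893) and FOS (0.844) followed that mean most closely, and each contributes to it. JUNB (0.81) and FOSB (0.73) came next, and NR4A2 (0.608), NR4A3 (0.467) and NR4A1 (0.436) followed it least. For NR4A2 both arrays without co-culture were high, at 6.45 and 6.63, and not replicate 2 alone. These correlations are descriptions over 8 arrays that share group and experiment, and the genes were ranked on the same values. PPP1R15A and DUSP1 also stand on the list of other immediate early genes.

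**Figure D5:**
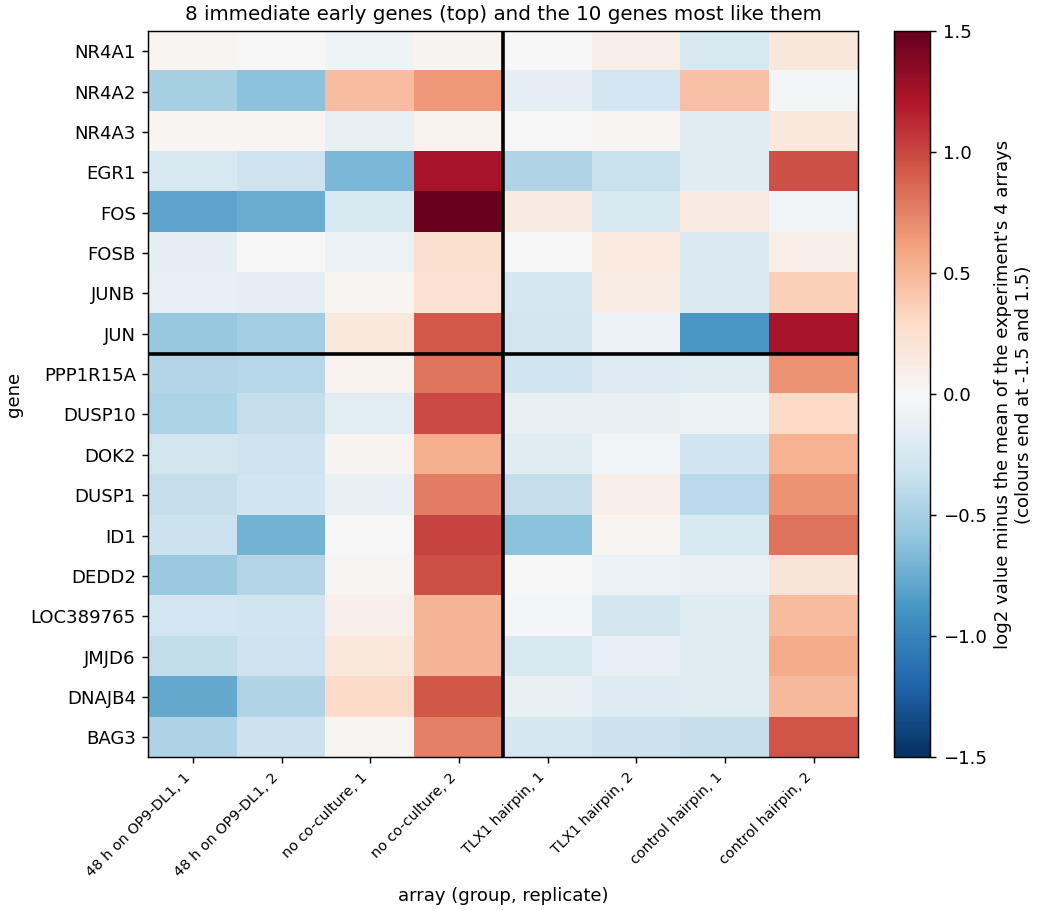
Values of the 8 members (above the line) and of the 10 most alike genes (below it) in the 8 arrays, as log2 value minus the mean of the experiment's 4 arrays; red is higher and blue lower, and colours end at -1.5 and 1.5. No-co-culture replicate 2 is the reddest column for FOS and EGR1, control hairpin replicate 2 for JUN, and NR4A2 is red in both arrays without co-culture.

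Markers of other cells moved with some of these groups. Fibroblast and stromal markers, read by human probe sets, averaged 5.77 and 5.42 over 14 genes in the co-cultured arrays and 5.53 and 5.79 without co-culture, with 8 or 9 of 14 above the array median in each. In the hairpin arrays 5 or 6 of 14 were above it. COL3A1, a fibrillar collagen gene picked out here for its values, read 7.54 and 6.01 in the co-cultured arrays and 6.18 and 7.78 without co-culture, so it was high in no-co-culture replicate 2, as FOS and EGR1 were, but also in co-cultured replicate 1, where they were not. Of 8 myeloid markers tested, 6 passed as higher and 0 as lower in the co-cultured arrays (limma), where 0.366% of all genes passed as higher. The other 2 were lower by sign. MPO read 7.82 and 8.13 in co-cultured arrays, against 8.69 in both arrays without co-culture (change -0.72, limma adjusted p = 0.156). Its probe set is among those written with 5 decimals. CSF1R changed by -0.03. The mean over 12 such markers was 6.17 and 6.20 in co-cultured arrays, with 8 and 7 of them above the median, against 4.92 and 4.97 without co-culture, with 4 and 5 above it. The part of stromal or myeloid RNA in the changes of NR4A2, TRIB1 and IER3 was not tested.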

How the data were processed

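Total RNA of 8 samples was measured on Affymetrix arrays. Per the submitters' processing notes, the deposited log2 values are RMA values (R 2.9.0, affy); further settings are not given in the sources used here. All arrays ran from 2.15 to 14.3 with a median of about 5.30, so a shift of all genes between arrays cannot be seen. The number of arrays limits the precision.

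Groups and replicate numbers came from the sample titles. Probe sets were named from the platform annotation: 41097 had 1 symbol, 1801 several and 11777 none. Probe sets that exceeded the array median in 2 or more of 8 arrays were kept, and the brightest of them on average stood for its gene. Changes were fitted with limma 3.58.1 in R 4.3.3, with a mean for each of 4 groups, eBayes defaults (4 residual and 3.62 prior degrees of freedom for genes, 3.81 prior for probe sets) and Benjamini-Hochberg adjustment over all 13102 genes or 30816 probe sets. The threshold was 0.05, and every adjusted p in the text is from limma. The fit was tested on simulated data. Gaps, likeness and promoter motifs are descriptions.

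The members and the gene lists were chosen with earlier results of these data known. Named are the 10 members, list genes past the threshold and up to 4 per list and contrast with the smallest p, and the 10 genes most like the members' mean. The alternatives were other filters, array weights, a trend in the spread, other arrays in the fit, replicate blocks, averaged probe sets per gene, and leaving out each array. Removing the probe sets of 5 decimals and crossing the replicate numbers were added after the data had been seen.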

Additional observations from a re-analysis of the deposited data

How the results depend on the processing

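Of 1166 alternative values for single genes and probe sets of the members over 17 settings, 16 gained a call, 16 lost one, and 59 changed sign, with no call before or after. The NR4A2 fall was kept with no dim filter, eBayes trend, array weights, only the arrays of the contrast and the replicate block. Its limma adjusted p was 0.0628 with the stricter dim filter and 0.119 with the mean of its probe sets, and 0.0527 for 204622_x_at without the probe sets of 5 decimals. Without either control hairpin array it was as low as 0.00473. With array weights FOS (limma adjusted p = 0.0453) and JUN (0.02) were also lower on OP9-DL1.

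For the TCR contrast the member genes called (1) were 3 with array weights, 0 with the mean of probe sets and 0 with the stricter filter, and 0 to 1 with 1 array left out. Member probe sets called (1) were 3 with array weights, 3 with only the arrays of the contrast, 2 with crossed numbers, 0 with the stricter filter, 0 without the 5-decimal probe sets and 0 to 1 with 1 array left out. All genes called (81) were 1350, 866 and 25 with array weights, only the arrays of the contrast and the stricter filter, and 29 to 217 with 1 left out. All probe sets called (151) were 1371, 436 and 58, and 61 to 316.

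For the TLX1 hairpin, genes called (12) were 1 with array weights, 0 with only the arrays of the contrast and 3 without the 5-decimal probe sets, and 0 to 1796 with 1 array left out. Probe sets called (20) were 0 with array weights, with only the arrays of the contrast and with crossed numbers, 7 without the 5-decimal probe sets, and 0 to 3482. Left-out arrays gave 0 to 1 member genes and 0 to 2 member probe sets. These calls were JUN 201464_x_at and EGR1 227404_s_at (-2.84, limma adjusted p = 0.0464), both without control hairpin replicate 1.

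For the difference of the changes, genes called (50) were 25 with the stricter filter and 14 to 908 with 1 left out. Probe sets called (103) were 60 with that filter, 64 without the 5-decimal probe sets and 35 to 1533. Member genes and probe sets were 0 to 1 each. The cause of these shifts was not tested.

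Same-numbered arrays deviated from their group means with a correlation of -0.144 for the TCR arrays and 0.353 for the hairpin arrays, so the numbers were not taken as pairs. With the replicate block, 73 genes passed in the TCR contrast, 9 with the hairpin and 59 in their difference, and the members' calls stayed at 1, 0 and 0. With numbers crossed in the TCR experiment, 71, 9 and 59 genes passed.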
